A study of Mus musculus with 257 samples.

Results

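The comparison described here set 5 cerebella of mice carrying the Wnt-model alleles, labelled BCP, against 5 wild-type cerebella, labelled WT, all collected from postnatal day 30 on (P30+). These 10 libraries were chosen by their labels of genotype, tissue and age out of 257 libraries in the series. BCP mice carry alleles of Ctnnb1 and Pik3ca that act in Blbp-positive cells, Blbp being the older name of Fabp7, a gene of hindbrain progenitors and radial glia. The labels do not spell the alleles out. Ddx3x, the gene perturbed in other groups of the series, was intact in BCP and WT. The labels name no Cre for WT, and they state neither sex nor a sequencing batch, nor an upper limit to the age. Whole cerebellum was sequenced, so the cells in which the alleles had recombined were not separated from the others, and fewer cells of a type cannot be told apart from less RNA per cell. The animal numbers in the labels are consecutive for WT replicates 1 to 4 and for BCP replicates 2 and 3, but no label names a litter. How far the replicates share litters is therefore not known. The p-values reflect how far these libraries differ among themselves, which may in part be technical.

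In canonical Wnt signalling, secreted Wnt ligands bind Frizzled receptors and Lrp co-receptors and stop a cytoplasmic destruction complex from degrading beta-catenin, the product of Ctnnb1. Beta-catenin then enters the nucleus and works with the TCF/LEF transcription factors. Many of the genes it turns on are brakes on the pathway, among them Axin2, Nkd1, Notum, Rnf43 and Znrf3. Pik3ca encodes a catalytic subunit of phosphoinositide 3-kinase, which feeds the Akt and mTOR growth pathway. Activation of the Wnt pathway marks a subgroup of medulloblastoma that is thought to arise from the dorsal brainstem.

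The 10 libraries held 12606224 to 20858069 counts each. Granule neuron markers summed to 6136 to 9454 CPM (counts per 1e+06 counts of the library) in BCP and to 9204 to 10540 CPM in WT, so all 10 carried the main neuron of the cerebellum. The groups differed in more than genotype. WT replicates 1 and 2 had 1390 and 1160 CPM of Xist, the RNA of the inactive X chromosome, and the other 8 libraries had 2.01 to 3.32 CPM. Mitochondrial genes took 3.26% to 3.72% of the counts in BCP and 1.02% to 2.82% in WT, and the highest WT share was that of replicate 5. In the order of the deposit the library titles pass through the alphabet more than once, and BCP and WT replicate 5 lie in the second pass while WT replicates 1 to 4 lie in the first. The mitochondrial share and the listing pass cannot be told apart from the genotype in BCP against WT at P30+.

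Of 17124 genes tested, 1999 were higher in BCP (11.7%) and 1910 were lower (11.2%) at a Benjamini-Hochberg adjusted p under 0.05 in edgeR's quasi-likelihood test. Genes past this threshold are said to be called. Of the called genes, 2326 had no overlap between the 5 BCP and the 5 WT levels, and the median log2 fold change of all genes was -0.01. The count was 2445 without WT replicate 2 and 2565 without WT replicate 3, and 923 when only WT replicates 3 to 5, which lack Xist, stood for WT. It was 977 when all 12 groups of the age shared an estimate of the spread. With the listing pass as a term, or with the mitochondrial share as a term, no gene was called, while 1479 and 1322 genes had an unadjusted p under 0.05. The median log2 fold change of the Wnt targets described below was 0.99 with the listing pass and 0.93 with the mitochondrial share as a term, beside 0.88 without either, and with the mitochondrial share Notum was at 4.29 (adjusted p = 0.399) and Wif1 at 4.91 (adjusted p = 0.426). DESeq2 with no such term called 4797 genes.

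Ctnnb1 (chr9:120929216-120960507 on GRCm38) stood at 388 to 504 CPM in the 5 BCP libraries and at 458 to 494 CPM in the 5 WT libraries. The groups overlapped, and the log2 fold change was 0.00 ± 0.07 (standard error, adjusted p = 0.979). Pik3ca (chr3:32397671-32468486) was at 142, 139, 138, 119 and 140 CPM in BCP replicates 1 to 5, the order used for all values by library, against 110, 119, 121, 108 and 130 in WT, higher by 0.28 ± 0.08 (adjusted p = 0.0285), with BCP replicate 4 inside the WT range. That call was lost in 16 of 25 alternative settings, among them WT replicates 3 to 5 (adjusted p = 0.135). Counts per gene do not show which allele the reads came from. Of the 97 genes tested within 10 Mb of Pik3ca 24.7% were called, and of the 112 within 10 Mb of Ctnnb1 22.3%, beside 22.8% of all genes. Ddx3x did not differ beyond its spread (0.02 ± 0.08, adjusted p = 0.894). Fabp7, a fatty acid carrier of radial glia counted here as a Bergmann glia marker, was lower in BCP (-1.20 ± 0.23, adjusted p = 0.0062). Of 10 Bergmann glia markers 2 were lower and none higher (median -0.225), beside 11.2% and 11.7% of all genes. The Fabp7 level at P30+ does not measure how many cells had recombined the alleles.

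Direct Wnt targets were higher in the BCP cerebella. Of 23 genes listed as targets, 20 passed the filter on low counts, 14 were called higher and none lower, beside 11.7% and 11.2% of all genes, with a median log2 fold change of 0.88. In 12 of the 14 the BCP and WT levels did not overlap, beside 2326 of the 3909 called genes. Since the median over all genes was -0.01, the list stood above it. Notum, a secreted enzyme that strips Wnt ligands of their lipid, was at 85.6, 19.8, 94.5, 45.1 and 52.5 CPM in BCP and at 5.52, 3.81, 3.71, 4.49 and 2.98 CPM in WT. Every BCP library lay above every WT library, and the log2 fold change was 3.92 ± 0.38 (adjusted p = 0.000463). Notum shares its locus with the antisense gene Notumos, and without the strand of the counting the reads of the pair cannot be told apart. Wif1, a secreted protein that binds Wnt ligands, stood at 133, 24.9, 179, 53 and 88.1 CPM in BCP and at 4.58, 1.82, 3.71, 3.73 and 3.44 in WT (4.83 ± 0.50, adjusted p = 0.000607).

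Other brakes on the pathway moved with them. Apcdd1, a membrane inhibitor of Wnt receptors, was at 231, 54.2, 228, 104 and 166 CPM in BCP and between 20.4 and 23.6 CPM in WT (2.89 ± 0.33, adjusted p = 0.000925). Nkd2 (3.72 ± 0.37, adjusted p = 0.000589) and Nkd1 (2.23 ± 0.34, adjusted p = 0.00249) act on Dishevelled, the protein that passes the receptor's signal on. Rnf43 and Znrf3, ubiquitin ligases that remove Frizzled receptors, rose by 1.67 ± 0.26 (adjusted p = 0.00271) and 0.73 ± 0.14 (adjusted p = 0.00562). The receptor gene Tnfrsf19 rose by 2.04 ± 0.32 (adjusted p = 0.00311). The transcription factors Lef1 (1.48 ± 0.19, adjusted p = 0.00118) and Tcf7 (1.32 ± 0.31, adjusted p = 0.0135), which carry beta-catenin to DNA, were also called. Axin2, the scaffold of the destruction complex and the most used readout of the pathway, moved less. It was at 71.6, 30.1, 79, 50.4 and 46.4 CPM in BCP and at 40.2, 37, 39.9, 35.3 and 32 CPM in WT, a log2 fold change of 0.66 ± 0.20 (adjusted p = 0.0371). BCP replicate 2 was below all 5 WT libraries in Axin2. The Axin2 call was lost in 18 of 25 alternative settings. Among them were BCP replicates 2 and 5 (0.17, adjusted p = 0.541) and WT replicates 3 to 5 (0.69, adjusted p = 0.138). Ccnd1 (-0.10 ± 0.25, adjusted p = 0.784) and Myc (0.45 ± 0.30, adjusted p = 0.299), cell cycle and growth genes named as targets in other tissues, were not called.

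The 5 BCP cerebella did not carry the target levels evenly. BCP replicate 2 was the lowest BCP library for 12 of the 14 called targets, and replicate 3 was the highest for 11. Even so, replicate 2 was above every WT library for 12 of the 14. The summed level of the target list was 1209, 653.2, 1568, 890.4 and 971.6 CPM in BCP replicates 1 to 5 and 423.8 to 514 CPM in WT.

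**Figure D1:**
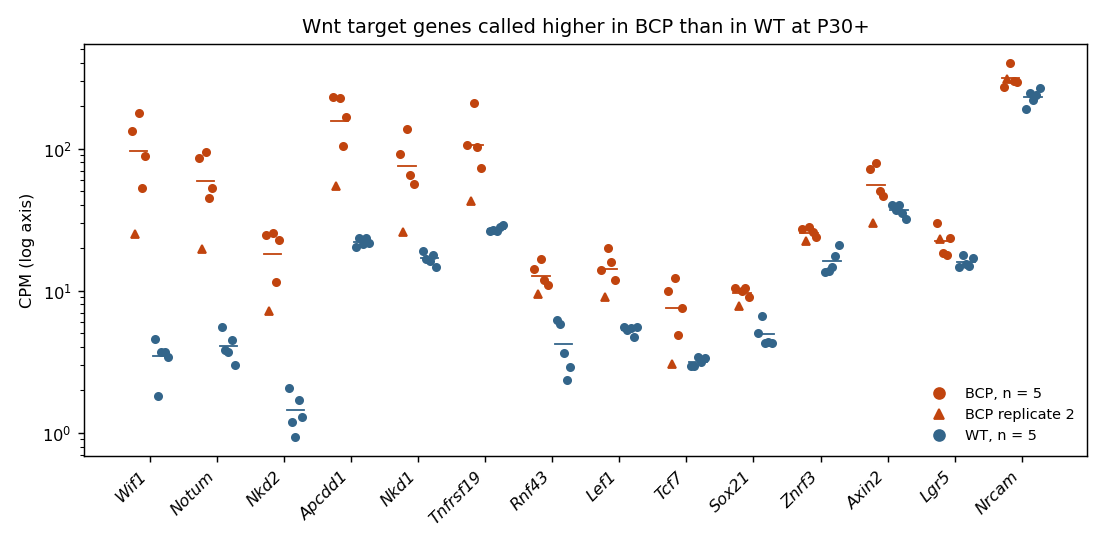
Levels in CPM (log axis) of the 14 Wnt targets called higher in BCP than in WT at P30+, ordered by fold change, with a point per library and a bar at the mean of 5. The triangle is BCP replicate 2, the lowest BCP library for 12 of them, and only Tcf7 and Axin2 overlap with WT.

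To show what lies at the start of these genes, RefSeq promoter windows (GRCm38.p6, 250 bases before to 50 after a start) were searched for the TCF/LEF core written as CTTTGAA or CTTTGAT on either strand. Of the 14 called targets 10 had a window in the table and 1 of them, Tnfrsf19, held a match (10%), beside 9.88% of all 27025 genes with a window. Of the 12 largest rises named further on, 10 had a window and 1 held a match, Prss56. The windows with a match are printed with the motif in capitals, and those of Wif1 and Axin2, with no match, stand beside them.
Tnfrsf19, chr14:61037938-61038237, minus strand: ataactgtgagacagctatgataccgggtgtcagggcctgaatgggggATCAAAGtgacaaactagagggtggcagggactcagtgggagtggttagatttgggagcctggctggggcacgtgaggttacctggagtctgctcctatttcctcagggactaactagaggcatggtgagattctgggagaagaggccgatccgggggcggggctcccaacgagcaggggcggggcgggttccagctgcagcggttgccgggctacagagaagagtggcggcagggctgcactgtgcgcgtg
Prss56, chr1:87183064-87183363, plus strand: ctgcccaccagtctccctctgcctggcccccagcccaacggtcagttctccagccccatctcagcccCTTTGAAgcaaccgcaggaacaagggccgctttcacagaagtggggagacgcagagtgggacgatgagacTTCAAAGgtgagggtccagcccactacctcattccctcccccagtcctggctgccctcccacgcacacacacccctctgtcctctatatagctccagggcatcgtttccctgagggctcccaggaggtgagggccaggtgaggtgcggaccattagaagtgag
Wif1, chr10:121033754-121034053, plus strand: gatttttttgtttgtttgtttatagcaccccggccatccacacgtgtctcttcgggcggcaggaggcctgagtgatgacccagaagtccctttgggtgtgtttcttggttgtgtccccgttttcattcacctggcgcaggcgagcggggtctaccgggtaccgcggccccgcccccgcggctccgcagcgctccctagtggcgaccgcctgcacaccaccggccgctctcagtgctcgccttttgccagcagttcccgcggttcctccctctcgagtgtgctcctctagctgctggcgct
Axin2, chr11:108920099-108920398, plus strand: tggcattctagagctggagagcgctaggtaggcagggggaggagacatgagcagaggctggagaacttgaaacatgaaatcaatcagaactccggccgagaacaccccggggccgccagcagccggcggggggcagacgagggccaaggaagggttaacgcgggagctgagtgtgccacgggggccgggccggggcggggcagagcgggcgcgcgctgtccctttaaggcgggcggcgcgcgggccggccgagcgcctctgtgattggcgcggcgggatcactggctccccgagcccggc
Prss56 holds the core on each strand. Tnfrsf19 has a further window at another start without a match.

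Among Wnt ligands, 7 of 11 tested were called higher and 1 lower, beside 11.7% and 11.2% of all genes. Their median log2 fold change was 0.82. Wnt5a, a ligand linked mainly to beta-catenin-independent signalling, was at 22.6, 11.4, 21.2, 19.9 and 16.8 CPM in BCP and at 6.14, 6.35, 7.92, 7.06 and 8.82 in WT (1.41 ± 0.18, adjusted p = 0.00141). Wnt16 (1.86 ± 0.35, adjusted p = 0.00552) and Wnt6 (1.08 ± 0.25, adjusted p = 0.0113) rose, and BCP replicate 2 at 1.92 CPM of Wnt16 lay inside the WT range of 1.16 to 2.7. Wnt7a, a ligand made by cerebellar granule neurons, was lower in every BCP library (25.3 to 48.2 CPM) than in any WT library (49.2 to 72.5), with a log2 fold change of -0.85 ± 0.17 (adjusted p = 0.00685).

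Of 21 receptors and agonists tested 10 were higher and 1 was lower (median 0.30). Here and for the secreted inhibitors below, the shares over all genes were 11.7% higher and 11.2% lower. The Frizzled receptor Fzd10 had the largest change, from 0.928 to 1.61 CPM in WT to 24, 4.62, 53.1, 12.1 and 10.6 CPM in BCP (4.07 ± 0.60, adjusted p = 0.00224). Rspo3, a secreted protein that amplifies the response to Wnt ligands, rose by 1.86 ± 0.33 (adjusted p = 0.00432). Adgra2, an adhesion receptor that works with Wnt7 ligands at brain vessels, rose by 0.80 ± 0.12 (adjusted p = 0.00224). Secreted inhibitors were called higher in 7 of 12 and lower in none, with a median of 1.13. The count of 7 was 4 without BCP replicate 3, BCP replicate 4, WT replicate 1 or WT replicate 2. They included Dkk2 (3.36 ± 0.61, adjusted p = 0.00477), Dkk3 (2.04 ± 0.34, adjusted p = 0.00365) and Frzb (1.65 ± 0.27, adjusted p = 0.00318), proteins that bind co-receptors or Wnt ligands.

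The core machinery changed less. In the destruction complex and its regulators 1 of 14 was called higher and 4 lower (median -0.09), beside 11.7% and 11.2% of all genes. Gsk3b, the kinase that marks beta-catenin for decay, was at 251, 236, 255, 262 and 240 CPM in BCP and at 123, 148, 169, 180 and 218 in WT (0.64 ± 0.14, adjusted p = 0.00977). The WT library nearest to BCP was replicate 5, which shares the listing pass of BCP. Dvl1, a Dishevelled gene, was lower in BCP, again with WT replicate 5 nearest to BCP, at 280, 225, 189, 195 and 163 CPM against 121 to 150 in BCP (-0.52 ± 0.12, adjusted p = 0.0112). With the mitochondrial share as a term the log2 fold change was -0.095 for Gsk3b (adjusted p = 0.873) and 0.022 for Dvl1 (adjusted p = 0.988), each with the sign turned. Among TCF factors and beta-catenin cofactors 4 of 13 were higher, and the corepressors Tle1 (0.53 ± 0.12, adjusted p = 0.0124) and Tle4 (0.54 ± 0.10, adjusted p = 0.00439) were among them.

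Of 25 genes of the PI3K and mTOR pathway 8 were called higher and 1 lower, with a median of 0.12, and no member was called within WT replicates 3 to 5 or in the BDCP comparisons described below. The count of 8 was 3 to 5 without any 1 of WT replicates 1 to 4. Pik3r2, a regulatory subunit of PI3K, was the member called lower (-0.38 ± 0.08, adjusted p = 0.0107). Of 15 FoxO factors and targets, which PI3K signalling holds back, 4 were higher and 2 lower, beside 11.7% and 11.2% of all genes. Foxo1 was at 50.9, 23.7, 59.9, 55.2 and 40.3 CPM in BCP and at 17.1 to 21.7 in WT (1.31 ± 0.21, adjusted p = 0.00294).

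The largest rises were of genes with next to no counts in WT. Sectm1a, which encodes a secreted and membrane immune protein, stood at 24.6, 1.38, 12.9, 2.18 and 18.9 CPM in BCP, while the 5 WT libraries together held 2 counts. The ratio of the pooled CPM was 494, with an exact Clopper-Pearson 95% interval of 136 to 4080 that covers counting error only. Ibsp, a bone matrix sialoprotein, was at 7.99, 0.961, 30.5, 6.39 and 2.44 CPM against 3 counts in all of WT, a ratio of 300.5 (103 to 1460). Prss56, a serine protease gene expressed in glia of the retina, was at 22.9, 7.21, 139, 56.2 and 8.37 CPM in BCP and at 0.0504 to 0.273 CPM in WT (8.38 ± 1.14, adjusted p = 0.00153). The largest rises and falls were picked among genes without overlap, so every BCP library lay above every WT library in all 3 genes by that rule.

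Further genes of this set encode matrix, growth factor and hair cell proteins. Tnmd, a tendon membrane protein, rose by 7.70 ± 0.62 (adjusted p = 0.000309) and Bmp3, a bone morphogenetic protein, by 7.30 ± 0.67 (adjusted p = 0.000362). Otog and Ush1c, genes of the inner ear whose loss causes deafness, are neighbours on opposite strands of chromosome 7 (chr7:46240987-46311434 and chr7:46195350-46238503). Otog was at 5.28, 1.92, 40.7, 22.1 and 13.9 CPM in BCP and at no more than 0.151 CPM in WT, and Ush1c at 5.35, 0.961, 8.63, 5.75 and 4.01 CPM against at most 0.273. Both were highest in BCP replicate 3 and lowest in replicate 2. Gldn (5.01 ± 0.58, adjusted p = 0.000993), an organiser of nodes of Ranvier in peripheral nerve, Slc43a1 (4.66 ± 0.49, adjusted p = 0.000607), an amino acid transporter, and Esyt3 (4.65 ± 0.49, adjusted p = 0.000607), a protein of membrane contact sites, completed the set with Wif1 and Cpne5. Cpne5, a calcium-binding copine, differed from the rest in its libraries, at 24.8 and 26.5 CPM in BCP replicates 3 and 4 and 1.5 to 7.65 in the others (5.88 ± 0.89, adjusted p = 0.00255).

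The 12 largest falls were smaller and came from genes with clear levels in WT. Rec8, a meiotic cohesin subunit, was at 1.35, 3.36, 2.92, 2.98 and 2.38 CPM in BCP and at 76.8, 72.3, 19.8, 17.9 and 23.2 in WT (-3.91 ± 0.48, adjusted p = 0.00107). WT replicates 1 and 2, the pair with Xist, were the highest, and against WT replicates 3 to 5 the value was -2.90 (adjusted p = 0.00526). Ntf3, a neurotrophin, was at 0.266 to 1.92 CPM in BCP and at 3.83 to 12.3 CPM in WT (-2.54 ± 0.43, adjusted p = 0.00365). Opalin, a membrane protein of myelinating oligodendrocytes, was at 6.97, 4.74, 4.6, 2.29 and 2.44 CPM in BCP and at 18.3, 12.1, 18.1, 15.5 and 17.7 CPM in WT (-1.90 ± 0.26, adjusted p = 0.00175). The extracellular proteases Adamts18 (-1.59 ± 0.17, adjusted p = 0.000607) and Adamts10 (-1.57 ± 0.25, adjusted p = 0.00322) also fell. For Strc, Sla, Mirt1, Ush1c, Gldn, Cpne5 and Esyt3, which overlap other annotated genes, the reads of the pair cannot be told apart. The other 7 falls were Strc, Tgm5, Necab3, Sla, Mirt1, Mir670hg and Mkrn3, between -2.46 for Strc and -1.68 for Mkrn3.

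Markers of several cell types moved with the genotype. Of 14 microglia markers 10 were called higher and none lower (median 0.87), beside 11.7% and 11.2% of all genes. Csf1r, the survival receptor of microglia, was at 50.7, 33.6, 55.6, 53 and 47.6 CPM in BCP and at 18.8, 21.7, 26.9, 32.3 and 30.9 in WT (0.95 ± 0.18, adjusted p = 0.00545), with no overlap but a narrow gap. P2ry12, a purine receptor of resting microglia, rose by 0.93 ± 0.18 (adjusted p = 0.00671). Tmem119 stood apart from the list, at 33.9, 11.7, 33.4, 20.3 and 23.7 CPM in BCP and at 3.28 to 5.25 in WT (2.67 ± 0.27, adjusted p = 0.000607). Tmem119 marks microglia in the brain and is known outside it from bone-forming cells. Its call held within BCP replicates 2 and 5 and within WT replicates 3 to 5, where the list counted 1 and 5 members higher. Of all genes 430 of 17780 and 522 of 17649 were higher in these settings.

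Of 10 meningeal fibroblast markers 8 were higher and none lower (median 0.94), beside 11.7% and 11.2% of all genes. Levels without overlap were found in only 1 of the 8, Col1a1, beside 2326 of the 3909 called genes. Col1a1, a collagen chain, was at 45, 21.1, 51.5, 29.7 and 50.2 CPM in BCP and at 15.4, 7.54, 17.5, 16.1 and 20.7 in WT (1.42 ± 0.28, adjusted p = 0.00728). Within WT replicates 3 to 5 the list counted 1 member higher, beside 522 of all 17649 genes tested. Of 11 astrocyte markers 4 were higher, among them Gfap, the astrocyte intermediate filament, at 359, 140, 238, 197 and 246 CPM in BCP and at 110, 79.6, 112, 147 and 135 in WT (1.08 ± 0.22, adjusted p = 0.00847). BCP replicate 2 overlapped with WT in Gfap.

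Oligodendrocyte markers were lower in BCP, 9 of 12 called and none higher, with a median of -0.74. Of all genes 11.2% were lower and 11.7% higher. Mog, a myelin surface protein, was at 62.2, 41, 32.5, 17.9 and 24.6 CPM in BCP and at 66.5, 68.2, 78.9, 83.9 and 87.2 in WT (-1.06 ± 0.26, adjusted p = 0.0159). The gap between the groups was narrow, since BCP replicate 1 came near WT replicate 1. The count was 4 within BCP replicates 2 and 5, 4 within WT replicates 3 to 5, 9 with Xist as a term and 1 with the midbrain score as a term. In the same order, 237 of 17780, 401 of 17649, 703 of 17124 and 215 of 17124 of all genes were lower. It was 4 or 5 without any 1 of BCP replicates 3 to 5 or WT replicates 3 to 5. Precursors of these cells had 1 of 9 markers higher and none lower.

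Neuron markers fell in part. Of 15 markers of inhibitory interneurons 5 were lower and 1 higher (median -0.36). For each neuron list here the shares over all genes were 11.2% lower and 11.7% higher. Kit, a receptor of molecular layer interneurons, was at 98.1, 187, 48.8, 112 and 68.1 CPM in BCP and at 237, 254, 251, 252 and 252 in WT (-1.21 ± 0.28, adjusted p = 0.0116). The WT levels were tightly set and BCP replicate 2 was the nearest to them. Tfap2b, a transcription factor of the interneuron lineage, fell by 1.11 ± 0.24 on the log2 scale (adjusted p = 0.0101). Of 15 granule neuron markers 4 were lower and none higher, with Cbln1, the granule cell synapse organiser, at -0.68 ± 0.13 (adjusted p = 0.00614) and Calb2 at -1.07 ± 0.22 (adjusted p = 0.00729). Purkinje cell markers were called in 1 of 15 each way, with a median of 0.01. Within BCP replicates 2 and 5 the interneuron list counted 2 lower and the granule list none, beside 237 of all 17780 genes tested. The granule count of 4 was 2 without BCP replicate 1, WT replicate 2 or WT replicate 3.

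Markers of neighbouring tissue varied widely. Pons and medulla markers summed to 23.43, 3.903, 20.9, 9.365 and 3.546 CPM in BCP replicates 1 to 5 and to 2.142 to 5.396 CPM in WT, so replicates 1, 3 and 4 lay above WT. Forebrain markers summed to 151.6 to 332.4 CPM in BCP and to 94.73 to 164.2 CPM in WT. Choroid plexus markers summed to 193.6 to 4924 CPM in BCP and to 151.5 to 5217 CPM in WT, and 0 of 12 were called. Interferon response genes were higher in 6 of 14 (median 1.44), beside 11.7% of all genes. Their sum was 249 CPM in BCP replicate 3, 64.67 to 99.44 in the other BCP libraries and 42.99 to 65.12 in WT. Immediate early genes, which neurons and handling turn on within minutes, were lower in 5 of 11, beside 11.2% of all genes. The interferon count was 2 or 3 without any 1 of WT replicates 1 to 4, and the immediate early count 3 without WT replicate 1 or 2. Their part, and that of the dissection, in the other results was not tested.

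**Figure D2:**
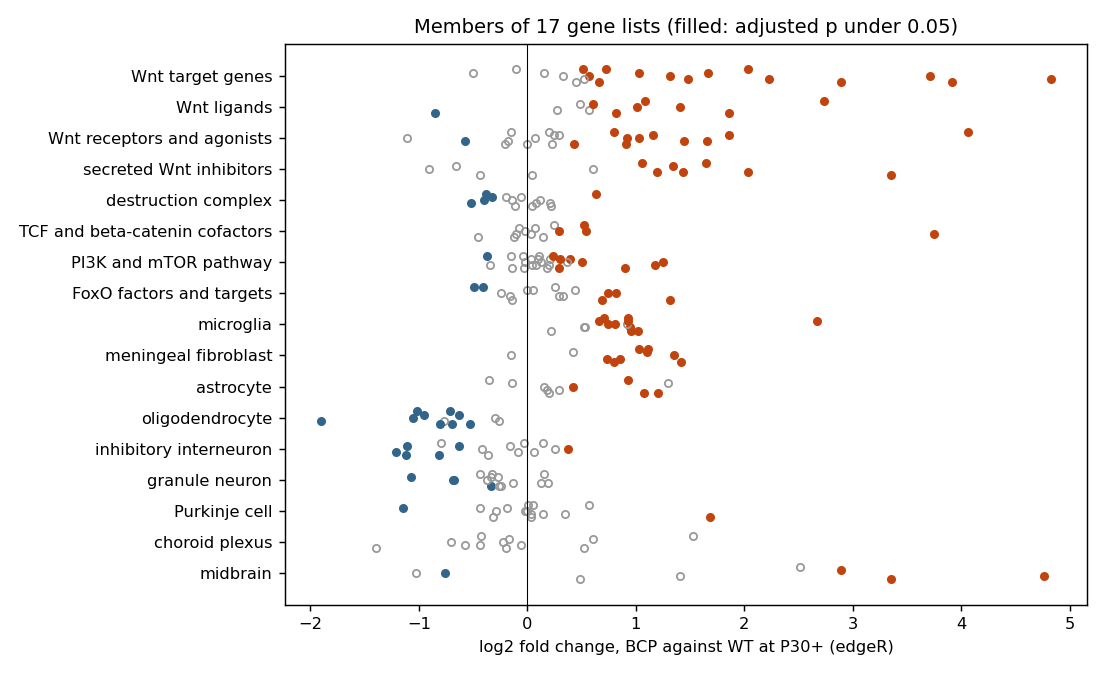
Log2 fold changes of BCP against WT at P30+ for the tested members of 17 gene lists, with filled points for an adjusted p under 0.05 (orange higher, blue lower). The filled Wnt target, microglia and meningeal fibroblast points all lie to the right of 0 and the filled oligodendrocyte points to the left.

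Midbrain tissue at the edge of the dissection was looked for with 18 midbrain markers. Of these 8 passed the filter, 3 were called higher (Cbln2, Tac1 and Th) and 1 lower (Barhl2), beside 11.7% and 11.2% of all genes. The count higher was 6 without BCP replicate 2 and 7 without BCP replicate 5. The summed level was 179, 113.5, 384, 244.7 and 75.21 CPM in BCP replicates 1 to 5 and 98.05 to 156.4 CPM in WT, so BCP replicates 3, 4 and 1 lay above WT and replicate 5 below it. Replicates 1 and 4 lay above WT only through Slc17a6, 1 of the 18 markers, which was not called and is described below. Pou4f3, Foxa1 and Foxa2, transcription factors of midbrain neurons, had 0 counts in all 5 WT libraries. No midbrain marker was at 0 in all 5 BCP libraries, and BCP replicates 3 and 4 had 2 and 1 of the 18 at 0, beside 4 to 6 in the other BCP libraries and 5 to 7 in WT.

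Cbln2 and Tac1 were highest in replicates 3 and 4, and Slc17a6 was also high in replicate 1. Cbln2, a synapse organiser, was at 29.5 and 21.6 CPM in BCP replicates 3 and 4, at 0.232 to 1.62 CPM in the other 3 and at 0.156 to 1.1 in WT (4.76 ± 1.19, adjusted p = 0.0166). Tac1, which encodes substance P, was at 14.9 and 10.2 CPM in replicates 3 and 4, at 0.291 to 1.02 in the others and at 0.238 to 0.973 in WT (3.36 ± 1.00, adjusted p = 0.0322). Slc17a6, the glutamate transporter of midbrain and thalamic neurons, was at 84.9, 21.7, 210, 148 and 3.55 CPM in BCP and at 22.6, 0.635, 14.7, 25.4 and 21.2 CPM in WT (2.52 ± 0.87, adjusted p = 0.056). Slc17a6 was therefore above the WT range in replicates 1, 3 and 4 and was not called.

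Tcf7l2, a TCF factor of the Wnt pathway that is also a marker of thalamic and midbrain neurons, followed this order and not that of the Wnt targets. It was at 5.49, 4.98, 147, 151 and 7.44 CPM in BCP and at 4.81 to 5.12 CPM in WT (3.75 ± 0.99, adjusted p = 0.0205). Against WT without replicates 3 and 4 of BCP it was 0.35 (adjusted p = 0.208), and with the midbrain score, the mean log2 CPM of the 18 markers, as a term it was -0.10. The first setting leaves out the libraries in which Tcf7l2 was high, and the score is highest in the same pair. Both therefore favour this outcome and are no check of where the Tcf7l2 reads came from. Bcl11b (2.77 ± 0.64, adjusted p = 0.0125), a transcription factor counted here as a forebrain marker, was at 19.5 and 16.3 CPM in the same pair and at 1.09 to 2.84 CPM elsewhere. Foxp2, on the Purkinje list and also expressed in the thalamus, was at 40.7 and 37.9 CPM there, at 11.9 to 12.5 in the other BCP libraries and at 4.32 to 9.73 in WT.

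Th, the rate-limiting enzyme of dopamine synthesis, was at 18.4, 9.01, 80.2, 7.29 and 18.1 CPM in BCP and at 8.07, 0.714, 4.1, 3.08 and 2.59 in WT (2.89 ± 0.70, adjusted p = 0.0146), with BCP replicate 4 inside the WT range. It was 4.52 ± 0.68 (adjusted p = 0.00971) in the comparison of BDCP-FLPlus with BD-FLPlus described below, and 6.08 ± 0.53 (adjusted p = 9.12e-05) at P13. In the BCP libraries without Cbln2 and Tac1, replicates 1, 2 and 5, its log2 fold change was 2.09 (adjusted p = 0.0262). The call was lost with the midbrain score as a term (1.77, adjusted p = 0.159), within BCP replicates 2 and 5 (1.97, adjusted p = 0.0677) and within WT replicates 3 to 5 (3.08, adjusted p = 0.06). Th is itself a member of the midbrain list behind the score and behind the choice of BCP replicates 2 and 5, so those settings favour the loss.

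**Figure D3:**
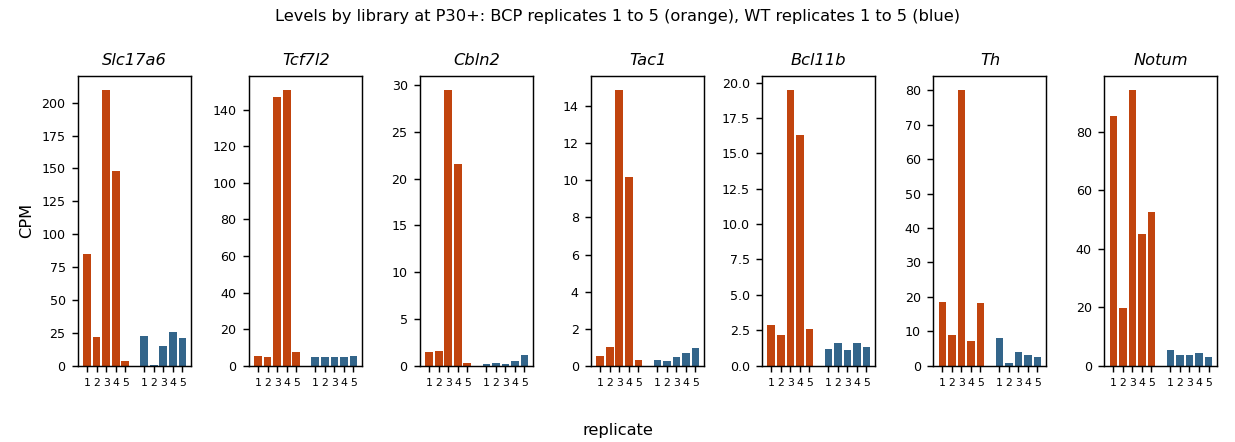
Levels in CPM of 7 genes in each library at P30+, BCP replicates 1 to 5 in orange and WT replicates 1 to 5 in blue, each panel with its own axis from 0. Tcf7l2, Cbln2, Tac1 and Bcl11b stand out in BCP replicates 3 and 4, and Notum is high in all 5.

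Wnt targets were also higher without BCP replicates 3 and 4, with Notum at 3.74 (adjusted p = 0.00157) and Wif1 at 4.61 (adjusted p = 0.00134). Leaving out replicate 1 as well kept BCP replicates 2 and 5, which had the lowest midbrain sums. Within these 667 genes were called against the 5 WT (430 higher, 237 lower), 581 of them among the 3909. Of 21 Wnt targets 10 were higher and none lower, beside 430 and 237 of all 17780 genes tested. Within BCP replicates 2 and 5 Notum had a log2 fold change of 3.25 (adjusted p = 0.00129), Wif1 of 4.12 (adjusted p = 0.00129) and Nkd2 of 3.47 (adjusted p = 0.00341). With the midbrain score as a term 571 of 17124 genes were called, 10 of 20 Wnt targets among them, with Notum at 3.56 (adjusted p = 0.00441). Of the midbrain list 0 of 8 were called within BCP replicates 2 and 5 or with the midbrain score as a term. Both settings favour that outcome, so it is no check of carry-over. The score is the mean of these same markers, and the 2 replicates are those with the lowest sums of them.

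The same alleles could be read in further groups of the series that share no library with BCP or WT. In BDCP-FLPlus, BD-FLPlus, BDCP-FLY and BD-FLY both listing passes are present in each group, and the mitochondrial shares overlap (1.19% to 3.43% against 1.5% to 5.46%, and 0.971% to 3.63% against 1.19% to 3.14%). The passes are not balanced. The first holds BDCP-FLPlus replicates 2 and 4 and BD-FLPlus replicates 1 to 4, a lean like that of BCP against WT. It holds BDCP-FLY replicates 2 and 4 and BD-FLY replicate 2, a lean the other way. The part of the pass in these comparisons was not tested. As their names read, BDCP mice carry the alleles together with a perturbed Ddx3x and BD mice the perturbed Ddx3x alone, FLPlus with 1 floxed and 1 intact copy and FLY with 1 floxed copy and a Y chromosome. BDCP-FLPlus against BD-FLPlus (4 against 5 libraries at P30+) gave 129 genes higher (0.748%) and 28 lower (0.162%). The total of 157 was 773 without BDCP-FLPlus replicate 4, 143 without its replicate 3 and 49 to 87 without any 1 of the other 7 libraries. BDCP-FLY against BD-FLY (4 against 5) gave 447 higher (2.55%) and 48 lower (0.274%). Of the 1999 genes higher in BCP, 95 were also higher in the FLPlus comparison (4.75% of the 1999 and 73.6% of the 129), and 278 in the FLY comparison (13.9% and 62.2% of the 447). Of the 1910 lower, 9 were lower in the FLPlus comparison (0.471% and 32.1% of the 28) and 27 in the FLY comparison (1.41% and 56.2% of the 48).

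The named genes were followed into both comparisons. Of the 12 largest rises, 9 of the 10 tested in the FLPlus comparison and 11 of 12 in the FLY comparison were called higher, the exception being Cpne5 (3.22 ± 0.68, adjusted p = 0.051, and 0.93 ± 0.75, adjusted p = 0.722). Of the 12 largest falls, 0 were called lower in the FLPlus comparison and 1, Opalin (-2.38 ± 0.23, adjusted p = 0.000253), in the FLY comparison, while 11 and 7 of the 12 had the same sign. Rec8 was at -0.30 ± 0.90 (adjusted p = 0.937) and -0.65 ± 0.64 (adjusted p = 0.794) there. Of the 14 called Wnt targets 8 and 10 were called higher again, and all 14 had the same sign in both.

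In all, 84 genes were higher in the 3 comparisons at P30+ and 1, Tmem132e, was lower in all 3. The 84 included Th, and 53 of them were also higher at P5 and P13, among these Notum, Wif1, Apcdd1, Nkd1, Fzd10 and Tmem119. Tmem119 was at 2.82 ± 0.41 (adjusted p = 0.00759) and 3.21 ± 0.28 (adjusted p = 0.000141) in the FLPlus and FLY comparisons, where it was the 1 microglia marker of 14 called. Gfap was called in both (1.21 ± 0.21, adjusted p = 0.0212, and 1.20 ± 0.11, adjusted p = 0.00019). Runx1, a transcription factor of blood and microglia named after its values were seen, was at 2.76 ± 0.50 (adjusted p = 0.00478) in BCP and was called in both. Of 12 oligodendrocyte markers 0 and 5 were lower, and of 15 interneuron markers 0 and 4.

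**Figure D4:**
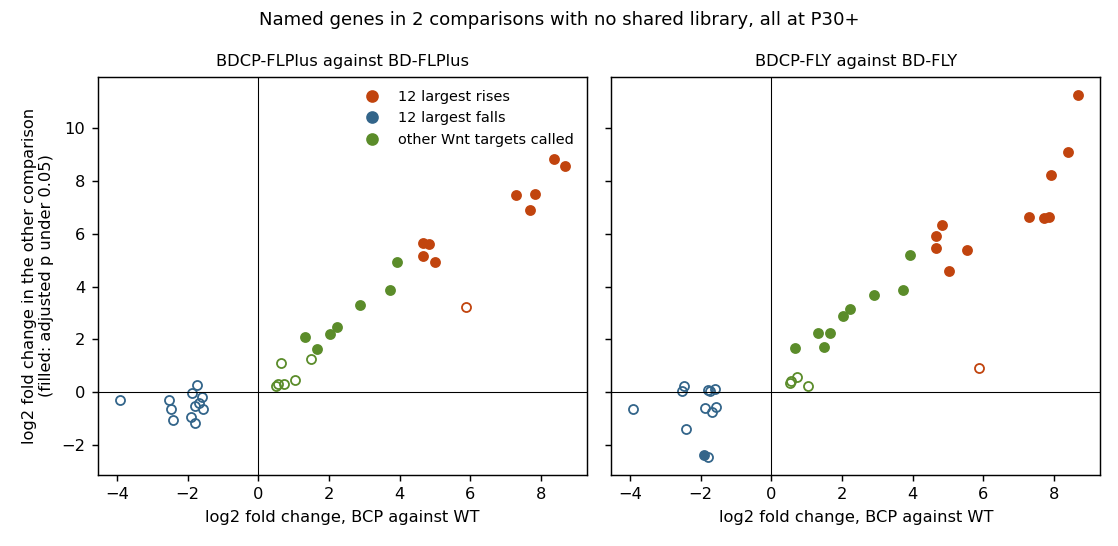
Log2 fold change of BCP against WT at P30+ (horizontal) against that of BDCP-FLPlus over BD-FLPlus and of BDCP-FLY over BD-FLY (vertical) for the largest rises, the largest falls and the other called Wnt targets, filled where the vertical comparison was called. The rises lie far above 0 in both panels except Cpne5 in the right one, and most falls lie near 0.

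The libraries labelled BDCP-FLFL did not show the rise. BDCP-FLFL against BD-FL-FL (5 against 5) gave 2 genes higher (0.0118%) and 0 lower (0%) in edgeR, with 1698 at an unadjusted p under 0.05 and 174 called by DESeq2. Notum was at 2.59 to 5.94 CPM in the libraries labelled BDCP-FLFL and at 2.59 to 3.67 CPM in BD-FL-FL, while BDCP-FLPlus reached from 23.4 to 189 CPM and BDCP-FLY from 87.1 to 210. Wif1 was at 1.88 to 4.72 CPM in the libraries labelled BDCP-FLFL. None of the 14 targets was called there. The midbrain sums of these groups also differed. They were 144.6 to 445.6 CPM in BDCP-FLPlus and 89.32 to 154.2 in BD-FLPlus. In BDCP-FLY they were 120.7 to 371 CPM and in BD-FLY 82.59 to 228. In the libraries labelled BDCP-FLFL they were 82.61 to 120.3 CPM, against 129.4 to 448.4 in BD-FL-FL. The part of midbrain tissue in these comparisons was not tested.

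The BCP effect was also read at younger ages. At E16.5 (3 BCP against 5 WT) 1 gene was higher (0.00548%) and 6 were lower (0.0329%) of 18258, with 2167 at an unadjusted p under 0.05. In the E16.5 labels BCP replicates 1 and 2 share the number before the letter P, as do WT replicates 2 and 3. These may be littermates, which the test does not take into account. At P5 527 were higher (2.91%) and 221 lower (1.22%), and at P13 796 were higher (4.47%) and 225 lower (1.26%), with 5 libraries per group. The counts do not order the ages, since the spread between libraries differed. Notum averaged 369 ± 179 CPM (SD, n = 5) in BCP at P5, 354 ± 79.2 at P13 and 59.5 ± 30.6 at P30+. Its log2 fold change was 1.98 ± 0.34 at E16.5 (adjusted p = 0.0935), 7.09 ± 0.45 at P5 (adjusted p = 3.08e-05), 6.05 ± 0.27 at P13 (adjusted p = 1.17e-06) and 3.92 ± 0.38 at P30+.

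The change of the effect from P13 to P30+ was tested by the interaction of genotype and age, fitted over BCP and WT at all 4 ages. The effect was higher at P30+ for 450 genes (2.21% of 20408) and lower for 288 (1.41%). At P13 the first listing pass holds BCP replicates 1, 4 and 5 and WT replicate 2, and the second holds the others. That lean is opposite to the one at P30+, so the pass is mixed into the difference between the ages. Its part was not tested. Among the Wnt targets it was smaller at P30+ for Axin2 (-1.29 ± 0.31, adjusted p = 0.0194), Notum (-2.09 ± 0.49, adjusted p = 0.0162) and Rnf43 (-1.91 ± 0.46, adjusted p = 0.0181). For Wif1 (-0.89 ± 0.66, adjusted p = 0.466), Nkd1 (-0.11 ± 0.50, adjusted p = 0.929) and Tmem119 (-0.62 ± 0.60, adjusted p = 0.591) the difference did not pass. The ligands Wnt16 (-3.65, adjusted p = 8.62e-05) and Wnt6 (-2.99, adjusted p = 0.0234) had smaller effects at P30+ too. Immediate early genes turned, with 7 of 12 higher at P13 (beside 4.47% of all genes) and 5 of 11 lower at P30+ (beside 11.2%). Egr4, an activity-regulated transcription factor, was at 2.24 ± 0.45 at P13 and at -1.09 ± 0.21 at P30+ (difference -3.29, adjusted p = 0.000218).

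**Figure D5:**
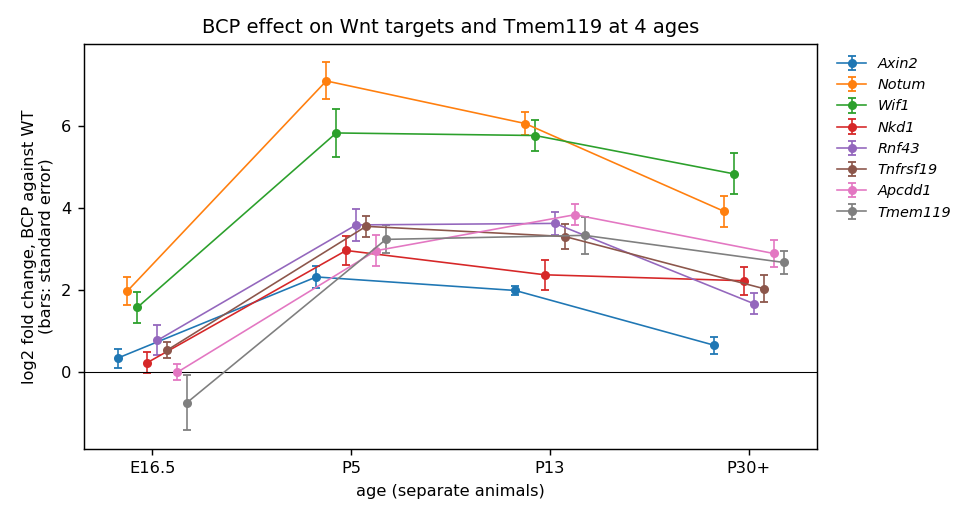
Log2 fold change of BCP against WT (standard error as bars) for 7 Wnt targets and Tmem119 at E16.5, P5, P13 and P30+, each age with its own animals. All 8 were called at P5 and P13, none at E16.5, and all 8 at P30+, where Axin2 has come down to 0.66. The Axin2 call at P30+ was lost in 18 of 25 alternative settings.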

How the data were processed

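RNA of whole cerebellum was sequenced, and the deposited values are raw read counts per gene, which the authors made with HISAT2 and featureCounts on GRCm38, per the submitters' processing notes. For versions, annotation release and strand setting: not given in the sources used here. Gene names came from a table of gene identifiers. Groups followed the labels. Counts were tested with edgeR 4.0.16 (TMM scaling, filterByExpr with a minimum of 10 and a total of 15, quasi-likelihood F-test, Benjamini-Hochberg adjustment, threshold 0.05) on the libraries of each comparison. DESeq2 1.42.0 was an alternative. Levels are CPM without TMM, and ± after a log2 fold change is a standard error. The fit was tested on simulated data. Genes named are the 12 largest changes each way among calls without overlap, and called or defining members of the lists. Slc17a6, Runx1 and Tmem132e were named after their values were seen. The members and lists were chosen with earlier results of these data known. Replicate numbers were not treated as pairs. In a check of deviations from the group mean, 3 of the 5 BCP libraries correlated best with the WT library of their number. Same-number correlations were -0.0223 to 0.209, and the highest with another number was 0.343, so pairing was not settled. The 10 libraries held 12606224 to 20858069 counts, which limits genes near 0. Alternatives were other scalings, filters and terms, and leaving out each library. Some members of the lists are counted but not reported here by name.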

Additional observations from a re-analysis of the deposited data

Results flagged for a closer look

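In 9 of 158 groups of 5 libraries tested, 1 library lay far from the other 4, where chance gives about 1 in 20 groups. The measure is the gap to the nearest library as a share of the group's range, with a limit of 0.71. It was 0.83 for Pik3ca in BCP (replicate 4 low), 0.76 for Ibsp in BCP (replicate 3 high), 0.77 for Mirt1 in BCP (replicate 2 high), 0.73 for Wnt16 in BCP (replicate 2 low) and 0.85 for Th in BCP (replicate 3 high). In WT it was 0.75 for Cpne5, 0.79 for Adgra2, 0.82 for Kit and 0.75 for Lef1.

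For 15 of the printed genes the BCP effect at P30+ differed from that at P13 by edgeR's interaction test. The listing passes lean opposite ways between BCP and WT at these ages, and their part was not tested. The effect at P30+ was higher by a log2 difference of 6.72 for Cpne5, 6.06 for Cbln2, 4.82 for Tac1, 3.43 for Slc17a6, 1.79 for Sla and 1.16 for Tle4. Cpne5, Cbln2, Tac1 and Slc17a6 had their highest BCP levels in replicates 3 and 4. The difference was -3.65 for Wnt16, -3.29 for Egr4, -2.99 for Wnt6, -2.44 for Ntf3, -2.31 for Adamts10, -2.09 for Notum, -2.0 for Mir670hg, -1.91 for Rnf43 and -1.29 for Axin2.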

How the results depend on the processing

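Of BCP against WT at P30+, 3909 genes were called. The count was 1753 with 4 ages in 1 fit, 977 with all 12 groups of the age, 571 with the midbrain score, 1468 with Xist, 0 with the listing pass and 0 within the second pass, where a single WT library leaves little room for any call. Alternatives chosen after seeing the data gave 667 for BCP replicates 2 and 5, 1691 for BCP replicates 1, 2 and 5, 923 for WT replicates 3 to 5, 1864 with Slc17a6 as a term and 0 with the mitochondrial share. Leaving out each library gave 2445 to 4224. With DESeq2 the counts were 1850 at P13, 1949 at P5, 319 at E16.5, 666 for FLPlus, 1024 for FLY and 174 for FLFL. Without a filter they were 58 at E16.5 and 346 for FLPlus. Leaving out each library gave 655 to 1552 at P13, 320 to 1181 at P5, 7 to 108 at E16.5, 49 to 773 for FLPlus, 320 to 672 for FLY, 0 to 54 for FLFL and 347 to 1748 for the age difference. No label says that replicate numbers mark a shared source. With the replicate block the counts were 3487 at P30+, 292 at P5, 0 at E16.5, 45 for FLPlus, 329 for FLY, 0 for FLFL and 488 for the age difference. Signs turned for Gsk3b (-0.095) and Dvl1 (0.022) with the mitochondrial share, and for Tcf7l2 (-0.10) and Tac1 (-0.58) with the midbrain score. The cause was not tested.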
